A study of Caenorhabditis elegans with 12 samples.

Results

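The genes described here are C. elegans genes that still carry a clone name (the name of the cosmid, fosmid or YAC clone from which the gene was sequenced, a dot and a number) and whose transcripts were low in cells with an active mir-124 promoter. The members are 98 protein-coding genes, 5 pseudogenes and 1 long noncoding RNA, which is 1.55% of 6717 clone-named genes, each read by 1 probe set, out of 17118 genes measured. A gene was taken when its mean log2 signal in GFP+ cells was at least 2 below that in GFP- cells, a 4-fold difference, both in the mir-124 mutant (replicates 1 to 3) and in wild-type (replicates 1 and 2). The members were thus chosen by the measured signals of these 10 arrays, so differences between the fractions are given as a description with no test.

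The study sorted cells by whether they carried green fluorescence from a mir-124 promoter transgene (pmir-124::GFP), in 4 groups of 3 arrays: GFP+ and GFP- cells of wild-type embryos, and GFP+ and GFP- cells of embryos labelled mir-124 for strain. Per the labels' protocols the reporter was injected together with a lin-15 rescue plasmid into lin-15 (n765) worms, integrated by X-ray irradiation and outcrossed into the N2 background, so the control groups carry the transgene too. Which mir-124 allele the mutant carries is not stated in the labels. After 24 hours of culture of dissociated embryonic cells, 500000 cells were sorted per sample and their RNA was amplified. The series calls the triplicates biological, but does not say whether they come from separate cultures or sorts, so a p-value below reflects only how far these arrays spread.

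MicroRNAs are short RNAs that guide Argonaute proteins to messenger RNAs and lower their output, and miR-124 is conserved and abundant in animal nervous systems. In C. elegans the mir-124 promoter is known to be active mainly in ciliated sensory neurons. GFP- cells from dissociated embryos are therefore a mixture of the other cell types, among them body wall muscle, hypodermis (the epidermis that secretes the cuticle), gut, pharynx, coelomocytes (scavenger cells of the body cavity), glia and other neurons. A clone name means that no gene class has been assigned, and the annotation used here gives these genes a type but no product or role, so none is stated below.

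One array went against its label. Over 17 cilium genes the mean log2 signal ran from 7.81 to 8.49 on the 5 GFP+ arrays that chose the members, and from 4.76 to 5.05 on the matching 5 GFP- ones. By contrast, the library labelled wild-type GFP- replicate 3 read 8.78, next to 8.75 in wild-type GFP+ replicate 3, and 21 body wall muscle genes averaged 8.01 in it against 9.71 to 10.42 in the 5 GFP- arrays. Values without both wild-type replicate 3 arrays lead below, and those with all 12 arrays follow. With all 12 arrays 37 clone-named genes met the thresholds, in place of the 98 protein-coding genes, 5 pseudogenes and 1 noncoding RNA found with 10. In bulk samples such as these, fewer cells of a type and less RNA per cell cannot be told apart.

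The median GFP+ minus GFP- difference of the members was -2.74 log2 units in mutant, a 6.70-fold lower signal, and -2.78 in wild-type, a 6.86-fold lower signal. Over all genes the medians were 0.01 and -0.02. The difference was below -3 in both strains for 27 members and below -4 in both for 1. Averaged over the strains, 32 members lay between 2 and 2.5 units lower, 36 between 2.5 and 3, 26 between 3 and 3.5, 8 between 3.5 and 4, and 2 beyond 4. All 5 GFP+ arrays lay below all 5 GFP- arrays for every member, which the thresholds nearly force, against 15% of the 17118 genes. By these thresholds 1.86% of all genes were low, with a share of 1.55% among clone-named genes and 2.06% among the 10401 genes with a gene-class name (214 genes).

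**Figure D1:**
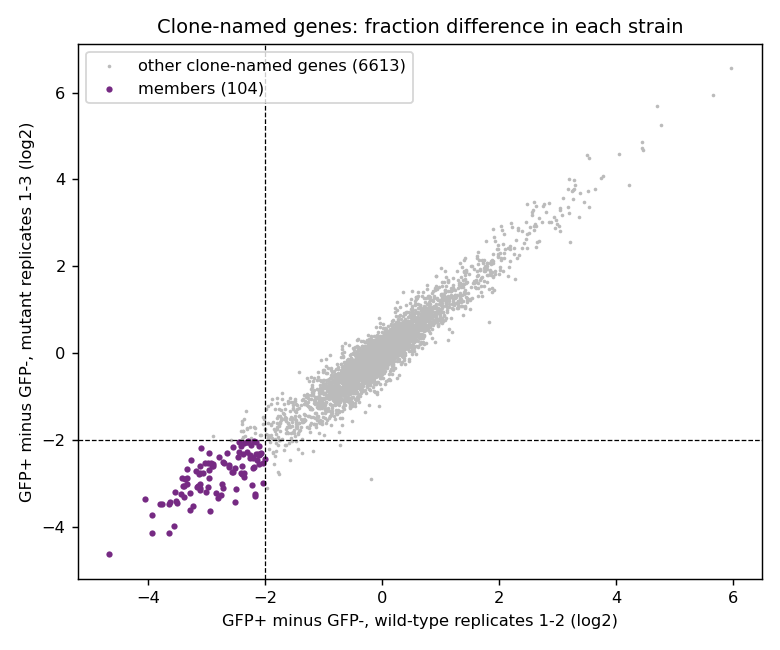
Each point is a clone-named gene, with GFP+ minus GFP- in wild-type (replicates 1 and 2) on the x axis and in mutant (replicates 1 to 3) on the y axis, both in log2 units. Dashed lines mark the threshold of -2, and the members fill the lower left corner, down to -4.67 and -4.64.

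The member lowest in GFP+ cells was F35C12.3. Its log2 signal was 4.29, 4.51 and 4.41 in mutant GFP+ and 3.99 and 4.45 in wild-type GFP+ arrays, against 8.38, 9.59 and 9.16 in mutant GFP- and 8.56 and 9.21 in wild-type GFP- arrays. The highest GFP+ array was thus almost 4 units below the lowest GFP- array, and the mean difference was -4.64 in mutant and -4.67 in wild-type, a 24.9-fold and a 25.4-fold lower signal.

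E04F6.9 came next, at -4.14 in mutant and -3.94 in wild-type. It read 6.47, 6.28 and 6.13 in mutant GFP+, 6.24 and 6.21 in wild-type GFP+, 10.78, 10.78 and 9.74 in mutant GFP- and 9.98 and 10.35 in wild-type GFP- arrays. Its GFP+ values lay close together in both strains, while the GFP- arrays spread over about 1 unit, with mutant replicate 3 lowest. T14B4.19 was brighter, with 7.59, 6.36 and 7.62 in mutant GFP+, 7.31 and 7.24 in wild-type GFP+, 11.49, 10.54 and 11.97 in mutant GFP- and 10.87 and 10.98 in wild-type GFP- arrays. Mutant replicate 2 was the lowest of its group for T14B4.19 in both fractions, and the mean differences were -4.14 and -3.65.

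M79.2 differed by -3.72 in mutant and -3.93 in wild-type, and its 5 GFP+ arrays lay at 4.53 to 5.22 against 7.94 to 9.22 in the GFP- arrays. T19B10.2, read by an _s_at probe set that can bind related transcripts, differed by -3.97 and -3.56, from 5.27 to 6.86 in GFP+ and from 9.06 to 11.34 in GFP- arrays. F09B9.4 showed the larger difference in wild-type (-4.06) than in mutant (-3.36), with GFP- arrays at 8.73 to 9.56. None of these 3 had an overlap between fractions, and T19B10.2 had the widest spread within GFP- cells.

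The other members of the lowest 10 were C46G7.2 (-3.49 in mutant and -3.80 in wild-type), ZC412.3 (-3.47 and -3.76), F53F10.1 (-3.48 and -3.65) and C29F5.1 (-3.42 and -3.64). ZC412.3, on an _s_at probe set, read 3.54 to 3.96 in all 5 GFP+ arrays. It was 1 of 7 members (6.73%, against 19.8% of all genes) below the lower quartile of every GFP+ array. There the size of a difference is uncertain because the signal nears the bottom of the scale. The remaining 6 were Y82E9BL.9, E04F6.8, F54D5.3, R02E4.1, F36F2.1 and R12E2.15, named after their values were seen.

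**Figure D2:**
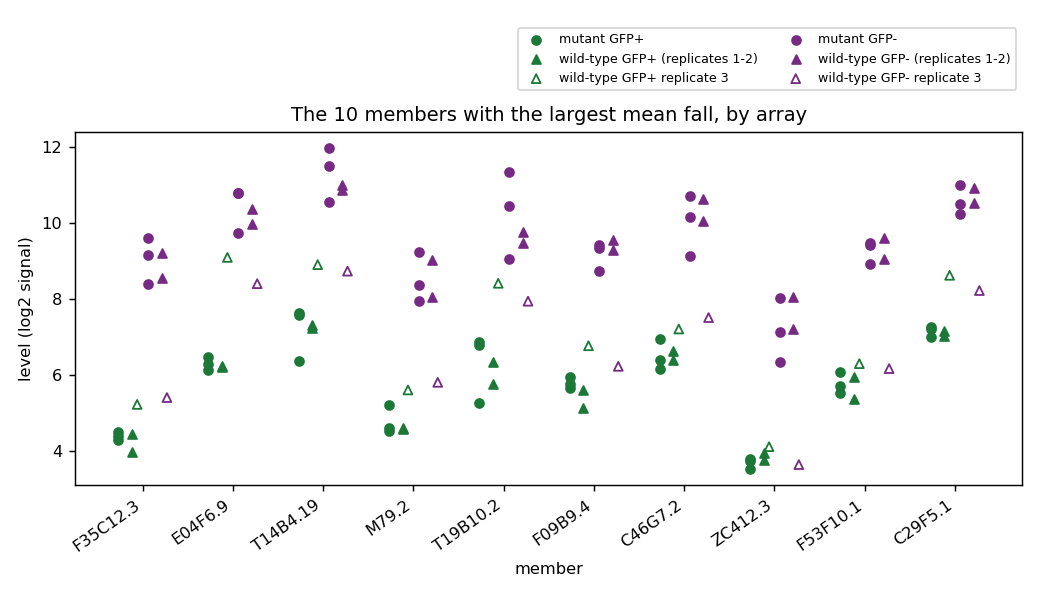
Log2 signal (y axis) of the 10 members with the lowest mean difference (x axis) on each array, GFP+ in green and GFP- in purple, mutant as circles and wild-type as triangles. Filled GFP+ and GFP- points do not overlap for any of the 10, and the open wild-type replicate 3 triangles of both labels lie apart from the filled GFP- points, at 5.23 and 5.41 for F35C12.3.

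At the threshold, the members just inside were F13D11.4 (-2.44 in mutant and -2.01 in wild-type), F46C8.3 (-2.03 and -2.29) and ZC247.2 (-2.03 and -2.20, an _s_at probe set). Just outside were F40A3.6 (-1.99 and -2.58), E01G4.5 (-3.10 and -1.97) and T04B2.3 (-1.97 and -2.39). A further 25 clone-named genes met the threshold in mutant alone and 25 in wild-type alone, counting these 3. The fraction difference of the 2 strains was less than 0.5 units apart for 87 members, and for 16147 of all 17118 genes. It was more than 1 unit apart for 2 members, and for 54 of all genes. The median gap between strains was 0.30 for the members, 0.25 for the 214 gene-class-named low genes and 0.15 for all genes. The difference was the more negative one in mutant for 45 members, and for 7890 of all genes.

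The members spanned a wide range of levels. Mean GFP- signal ran from 6.06 to 11.36 with a median of 8.41, and mean GFP+ signal from 3.43 to 8.33 with a median of 5.59, against medians of 5.54 and 5.48 for all genes. Signals of different probe sets depend on probe affinity, so this orders signals, not transcript amounts. In GFP- cells 56 members (53.8%) were above the upper quartile on all 5 arrays. The share was 63.1% for the 214 gene-class-named low genes and 22.1% for all genes. Below the lower quartile on all 5 lay 0 members, 0 gene-class-named low genes and 19.1% of all genes. The thresholds ask for a GFP- signal well above the GFP+ one, so they favour genes bright in GFP- cells, and these shares are a description.

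T21B6.3 had the highest signal in both fractions, with 8.67, 7.65 and 8.58 in mutant GFP+, 8.49 and 8.24 in wild-type GFP+, 11.71, 11.28 and 11.14 in mutant GFP- and 11.56 and 11.13 in wild-type GFP- arrays. T14B4.19 and F46F11.7 (10.20 to 11.34) followed in GFP- cells, and F53B3.5 (7.51 to 8.92) and W04A8.4 (7.08 to 8.78, an _s_at probe set) in GFP+ cells. T21B6.3 and F08B12.4 were above the upper quartile on all 5 GFP+ arrays as well, so a low ratio did not mean a low signal for them. The dimmest in GFP- cells were Y61A9LA.7 (5.47 to 7.05), R12E2.15 (5.48 to 7.47, an _x_at probe set) and F41C3.2 (5.51 to 7.80).

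**Figure D3:**
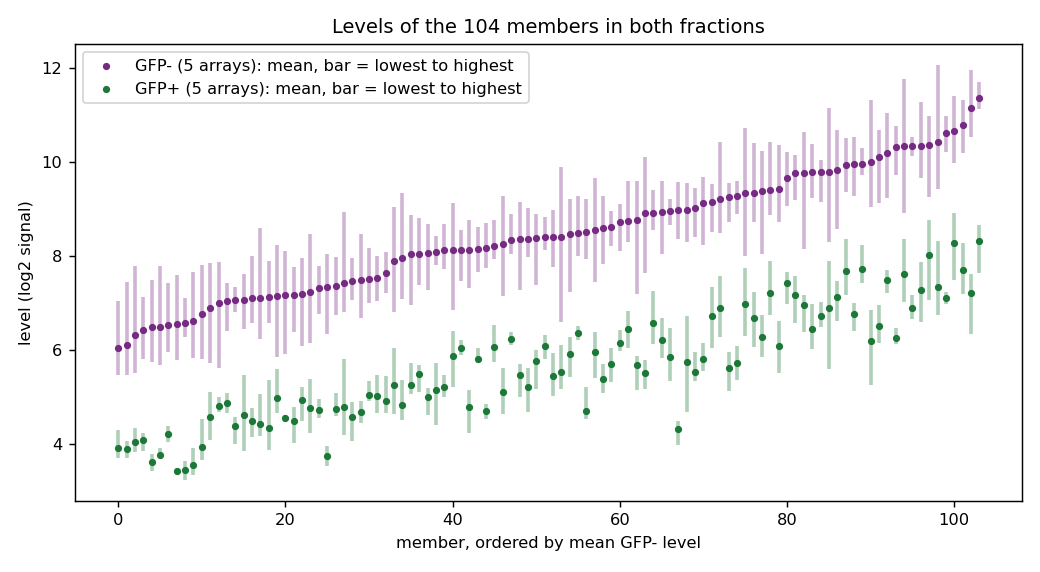
Mean log2 signal (y axis) of each member over 5 GFP- arrays (purple) and 5 GFP+ arrays (green), with bars from the lowest to the highest array. Members are ordered along the x axis by mean GFP- signal, from 6.06 to 11.36, and no green bar reaches the purple bar of the same member.

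Within the GFP- fraction the members did not move as 1 block. The range over the 3 mutant GFP- arrays had a median of 1.26 units for the members, 0.999 for the 214 gene-class-named low genes and 0.41 for all genes. It exceeded 2 units for 19 members (18.3%), for 16.4% of the gene-class-named low genes and for 0.981% of all genes. In mutant GFP+ cells the same range had a median of 0.59 for the members, 0.57 for the gene-class-named low genes and 0.29 for all genes. There it exceeded 2 units for 2 members, 2 gene-class-named low genes and 27 of all 17118 genes. The rule did not use this spread, but it used the means of the same arrays, which a high array can raise. The members are also brighter in GFP- cells than most genes, so all genes are not a matched comparison.

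ZK180.5 had the widest range, with 10.12, 8.31 and 11.16 in mutant GFP- replicates 1, 2 and 3 and 9.68 and 9.77 in wild-type. R13H4.2 ran differently, with 9.46, 8.29 and 6.62 in mutant GFP- and 9.90 and 7.85 in wild-type GFP- replicates 1 and 2. F10D11.6 read 9.18, 8.01 and 10.74 in mutant GFP- and 9.42 and 9.36 in wild-type GFP- arrays. Mutant replicate 3 was thus the highest for ZK180.5 and F10D11.6 and the lowest for R13H4.2.

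Members divided mainly into those highest in mutant GFP- replicate 1 and those highest in replicate 3. There were 50 of the first kind (48.1%, against 32.9% of all genes), 42 of the second (40.4%, against 32.6%) and 12 highest in replicate 2 (11.5%, against 34.5%). In wild-type, 42 of the 50 members highest in mutant replicate 1 were higher in replicate 1 than in replicate 2 (84%, against 47.7% of all genes highest there). The wild-type arrays are separate samples, but whether same-numbered samples of the strains were handled together is not stated. The wild-type order is therefore not an independent check. Of the 42 highest in mutant replicate 3, 29 were higher in wild-type replicate 2 (69.0%, against 56.7% of all genes highest there). The 214 gene-class-named genes held to the same thresholds divided in much the same shares, with 103 highest in mutant replicate 1, 22 in replicate 2 and 89 in replicate 3. In wild-type, 81 of those 103 were higher in replicate 1, and 48 of those 89 (53.9%) were higher in replicate 2.

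Among the 42 that were highest in replicate 1 of both strains were R13H4.2, EGAP4.1 and Y17D7B.4, picked after their values were seen for their wide range. EGAP4.1 read 10.65, 9.60 and 8.16 in mutant GFP- and 10.58 and 9.90 in wild-type GFP- arrays, and Y17D7B.4 read 10.11, 9.14, 7.64, 8.99 and 8.77 in the same order. Among the 29 of the other kind, C25F9.2 read 9.43, 10.03 and 12.08 in mutant GFP- and 9.53 and 11.06 in wild-type GFP- arrays. F41C3.2 was likewise highest in mutant replicate 3 and next in wild-type replicate 2, at a lower signal, with 5.54, 5.84, 7.80, 5.51 and 6.91.

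Marker genes of tissues differed between these arrays too. Of 21 body wall muscle genes 19 were highest in mutant GFP- replicate 1 and all of those were higher in wild-type replicate 1, with a list mean of 10.42 in mutant replicate 1 and 10.40 in wild-type replicate 1 against 9.71 to 9.82 in the other three GFP- arrays. Of 14 hypodermis genes 11 were highest in mutant replicate 3, with list means of 8.06, 7.19 and 8.63 in mutant and 7.61 and 7.67 in wild-type GFP- arrays. All 3 coelomocyte genes were highest in mutant replicate 3 (list means 7.94, 8.29 and 8.57), 9 of 12 cell cycle genes were, and 4 of 13 intestine genes were. So were 4 of 8 germline, 2 of 6 glia and 7 of 17 cilium genes, against 32.6% of all genes. Of the genes highest there, 7 of 11 hypodermis, 2 of 3 coelomocyte, 4 of 9 cell cycle and 2 of 4 intestine genes were higher in wild-type replicate 2. The same held for 3 of 4 germline, 2 of 2 glia and 3 of 7 cilium genes, and for 56.7% of all genes highest there. Highest in mutant replicate 2 were 6 of 13 intestine, 4 of 7 pharynx and 11 of 14 pan-neuronal genes, against 34.5% of all genes. The part of any tissue in the members' values was not tested.

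The same lists were lower in GFP+ cells, apart from neuronal, cilium and glia genes. At -2 or less in both strains were 9 of 21 body wall muscle genes, 4 of 14 hypodermis genes, 3 of 13 intestine genes, 2 of 3 coelomocyte genes, 4 of 12 cell cycle genes, 1 of 8 germline genes and 0 of 7 pharynx and 0 of 6 glia genes. List means in GFP+ and GFP- arrays were 7.82 to 8.28 and 9.71 to 10.42 for muscle, 5.82 to 6.55 and 7.19 to 8.63 for hypodermis, 5.3 to 5.48 and 6.31 to 6.88 for intestine, and 5.76 to 5.88 and 7.94 to 8.57 for coelomocytes. Cilium genes stood at 2 or more in both strains in 15 of 17 cases and pan-neuronal genes in 2 of 14. The mean over the members was 5.47 to 5.81 in the 5 GFP+ arrays and 8.32 to 8.65 in the 5 GFP- arrays.

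**Figure D4:**
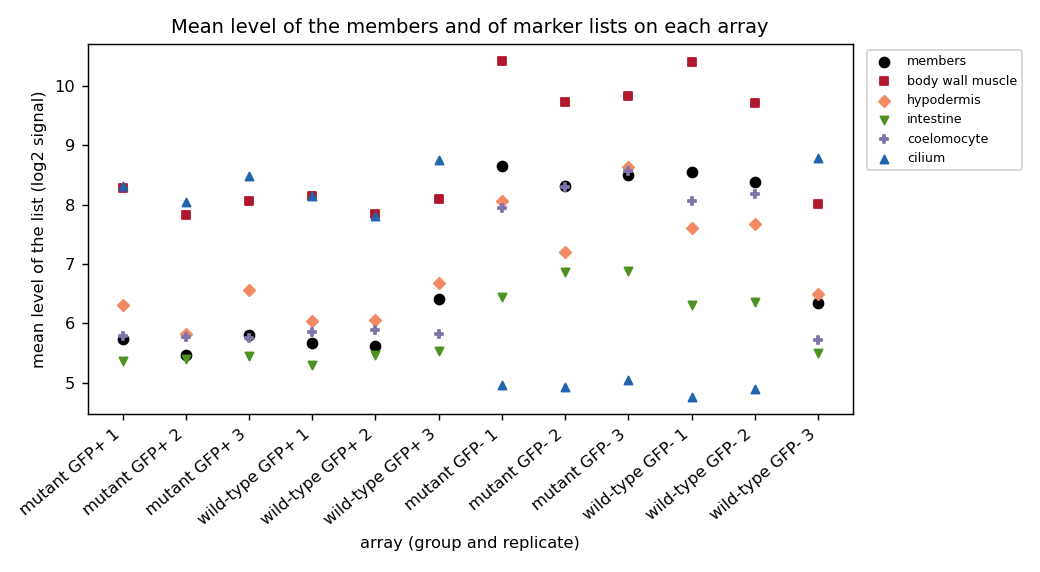
Mean log2 signal (y axis) of the members (black) and of 5 marker lists on each of the 12 arrays (x axis). Body wall muscle is highest on replicate 1 of both GFP- groups, hypodermis on mutant GFP- replicate 3, and wild-type GFP- replicate 3 has the cilium mean of a GFP+ array (8.78).

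Probe sets of the same gene often gave smaller differences. For 30 members (28.8%, against 17.4% of all genes) the array holds 36 further single-gene probe sets, all dimmer by the way members were represented. Of these 36, 34 were lower in GFP+ cells in both strains and 7 met the thresholds. The largest gaps were those of K09A9.6 (an _s_at probe set used), F35A5.1 and Y82E9BL.9 (each an _x_at probe set used), which can bind related transcripts. For K09A9.6 the probe set used differed by -3.20 in mutant and -3.54 in wild-type, while a second one, at 3.81 in GFP- cells, differed by 0.02 and 0.05. Another K09A9.6 probe set, at 8.17 in GFP- cells, met the thresholds at -2.37 and -2.28. For F35A5.1 a probe set at 4.42 in GFP- cells differed by -0.23 and -0.17, and another at 6.26 by -1.88 and -2.25. Neither met the thresholds in both strains. In T21B6.3 the second probe set differed by more than the first, by -4.26 and -4.13 against -3.08 and -2.98. Among the lowest 10, second probe sets of M79.2 (-1.64 and -1.53) and T14B4.19 (-2.60 and -1.79) missed the thresholds. That of T19B10.2 met them (-2.73 and -2.34). Other probe sets of F54D5.3 (-0.24 and 0.06, and -1.35 and -1.03), Y71F9B.9 (-0.98 and -0.60) and Y32F6A.5 (-0.46 and -0.34) also missed them. These had a GFP- signal of 4.46 or less.

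By annotation, the 5 pseudogenes were Y82E9BL.9 (an _x_at probe set), ZC513.7, K01A2.3, K02E7.6 and C14C6.12, and the noncoding RNA was F31A9.2. ZC513.7 was the brightest of them, with 9.20 to 10.16 in GFP- and 6.59 to 7.59 in GFP+ arrays. Related transcripts can be read by 30 of the probe sets used (28.8%), 25 of them _s_at and 5 _x_at, against 24.5% over all genes and 46.7% over the 214 gene-class-named low genes.

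On the WBcel235 annotation the members lay on all 6 chromosomes, 19 on I, 20 on II, 10 on III, 8 on IV, 27 on V and 20 on X. Chromosome IV held 7.69% of the members, 14.5% of the gene-class-named low genes and 15.6% of all genes measured. X held 19.2%, 22.9% and 13.7% of the same sets. Next to 11 members (10.6%) the adjacent measured gene also met the thresholds, as for 10.3% of the gene-class-named low genes and 3.64% of all genes. E04F6.8 and E04F6.9 on chromosome II were the only adjacent pair of members. E04F6.8 was dimmer than its neighbour, with 3.24 to 3.66 in GFP+ and 6.28 to 7.12 in GFP- arrays, and differed by -3.33 in mutant and -2.81 in wild-type.

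The other 9 members of this kind stood beside a gene with a gene-class name, and these were named after their values were seen. T14B4.19 neighbours dpy-2, a cuticle collagen gene (-3.66 in mutant and -3.30 in wild-type), EGAP4.1 neighbours tnt-2, a troponin T gene (-2.36 and -2.63), and F10D11.6 neighbours unc-120, a muscle transcription factor gene (-2.62 and -2.82). T04A6.1 (-2.20 and -3.10) neighbours fbn-1 (-2.15 and -2.63), and F41B4.1 (-2.71 and -3.19) neighbours dhs-28 (-4.0 and -3.08). R11A5.3, K01A2.3, Y38E10A.14 and F46C8.3 lie beside pck-2, mps-2, nspe-7 and chts-1. The arrangement of these genes in operons or their strand was not analysed here.

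The first strain contrast, in GFP- cells, asked whether loss of mir-124 went with a change where the members are high. The rule did not use this contrast itself, but it used the same arrays. It also dropped genes that met the threshold in mutant alone or in wild-type alone, which limits strain differences of the members in either fraction. With limma 0 members passed an adjusted p of 0.05, against 0.0177% of 22548 probe sets, and 7 members (6.73%) had an unadjusted p under 0.05, against 5.33%. The median difference was 0.02 (quartiles -0.34 and 0.33) for the members and -0.01 (quartiles -0.15 and 0.15) for all genes, with 54 members higher and 50 lower in mutant. Arrays of the strains did not overlap for 5 members higher in mutant, against 8.99% of all genes, and for 1 lower, against 8.78%.

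Y71F9B.9, on an _s_at probe set, had the smallest p. It read 7.17, 6.92 and 7.82 in mutant GFP- and 5.82 and 6.20 in wild-type GFP- arrays, with 3.68 to 4.53 in the 5 GFP+ arrays. Every mutant GFP- array lay above both wild-type ones, and the mean difference was 1.29 ± 0.308 on the log2 scale (SE), short of the threshold (limma adjusted p = 0.817). F59B1.2 read 7.25, 8.25 and 8.48 in mutant and 6.86 and 6.68 in wild-type GFP- arrays (1.22 ± 0.316, limma adjusted p = 0.878). F54D5.3 read 6.14, 7.48 and 7.67 against 5.85 and 5.98 (1.18 ± 0.382, limma adjusted p = 0.878).

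For F59B1.2 and F54D5.3 mutant GFP- replicate 1 was the array nearest to wild-type. Without it both passed (1.59 ± 0.179 and 1.66 ± 0.171, limma adjusted p = 0.0404 and 0.0305), in a fit where 0.0488% of all probe sets did, and in none of the other settings run did a member pass. With all 12 arrays 0 members passed limma's adjusted p (0.0222% of probe sets did) and 6 had an unadjusted p under 0.05 (5.01% of probe sets), while the members' median moved to 0.73. That median includes the library labelled wild-type GFP- replicate 3, which had the GFP+ profile.

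In GFP+ cells, where the promoter is active and the members are low, 0 members passed limma's adjusted p of 0.05 (0.0222% of probe sets did) and 1 had an unadjusted p under 0.05 (0.962%, against 3.05%). The median difference was 0.01 for both the members and all genes, with 53 members higher and 51 lower in mutant. Arrays of the strains did not overlap for 10 members higher in mutant (9.62%, against 11.4% of all genes) and 9 lower (8.65%, against 8.13%). ZK228.4 had the smallest p, with 5.34, 5.73 and 5.27 in mutant GFP+ and 5.01 and 4.41 in wild-type GFP+ arrays. All mutant arrays were above the wild-type ones, by a mean of 0.74 ± 0.236, which did not pass (limma adjusted p = 1). With all 12 arrays 0 members had an adjusted p (0.0133% of probe sets) or an unadjusted p under 0.05 (1.03% of probe sets) by limma, and the members' median was -0.21.

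The interaction asked whether the fraction difference itself differed between strains, within the limit that both differences were held at -2 or less. With limma 0 members passed, as did 0% of probe sets, and 3 had an unadjusted p under 0.05 (2.88%, against 1.18%), with 4 when all 12 arrays were used (1.46% of probe sets). These 3 were Y32F6A.5, an _s_at probe set (-0.96 ± 0.282), Y71F9B.9 (-1.11 ± 0.436) and F59B1.2 (-1.07 ± 0.446), each with limma adjusted p = 1. Y32F6A.5 read 7.46, 7.98 and 7.57 in mutant and 7.05 and 6.76 in wild-type GFP- arrays, and 4.61 to 5.10 in the GFP+ arrays.

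**Figure D5:**
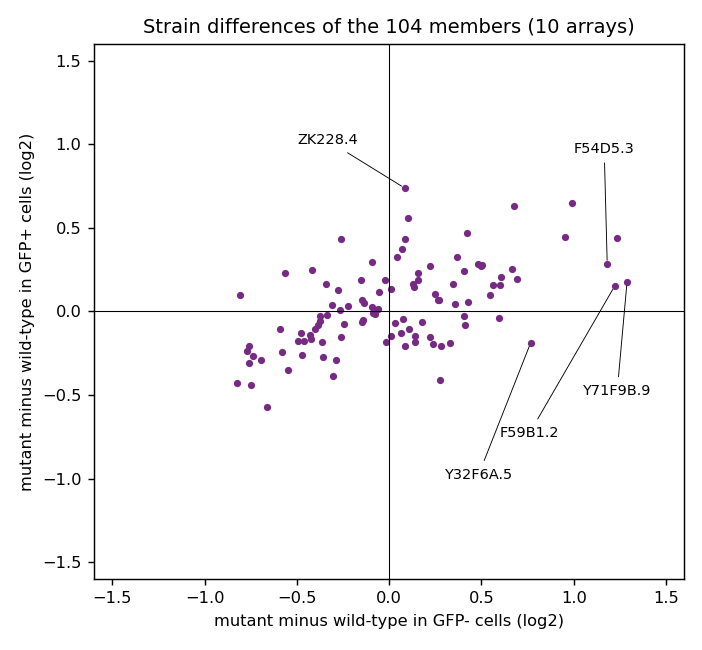
Mutant minus wild-type log2 difference of each member in GFP- cells (x axis) and in GFP+ cells (y axis), from the fit to 10 arrays. Points spread further along the x axis (-0.82 to 1.29) than along the y axis (-0.57 to 0.74), and none passed limma's adjusted p of 0.05.

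The wild-type replicate 3 pair did not enter the thresholds, although both arrays counted in the mean that picked 1 probe set for each of the 30 members with several. Between them the members differed by a median of 0.12 (GFP+ minus GFP-), with 46 members lower in the library labelled GFP+ (44.2%, against 41% of all genes), 1 member at -1 or less and 0 at 1 or more. The member at -1 or less was ZC247.2, with 5.50 in the library labelled GFP+ and 6.64 in that labelled GFP-. In the library labelled GFP- replicate 3, 101 members lay below both other wild-type GFP- arrays (97.1%, against 99.1% of the gene-class-named low genes and 45.5% of all genes). In it 81 were nearer to the mean of wild-type GFP+ replicates 1 and 2 than to that of GFP- replicates 1 and 2 (77.9%, against 86.9% of the gene-class-named low genes and 57.0% of all genes). Both sets were chosen for high values on those other GFP- arrays, which favours a left-out array lying below them, toward the GFP+ mean.

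Neither replicate 3 array matched the other GFP+ arrays fully for the members. Wild-type GFP+ replicate 3 lay above both other wild-type GFP+ arrays for 76 members (73.1%, against 50.5% of all genes), by a median of 0.70 over all members and 0.09 over all genes. Among the gene-class-named low genes this held for 75.7%, with a median of 0.66. Both sets were chosen for low values on those other arrays, which favours a left-out array lying above them. C06C3.4 read 7.16 and 7.30 in the libraries labelled GFP+ and GFP- replicate 3, next to 3.89 to 5.37 in the other GFP+ and 6.59 to 7.90 in the other GFP- arrays. R02E4.1 (6.51 and 5.60), E04F6.9 (9.09 and 8.40) and F31A9.2 (7.14 and 6.85) likewise read above all 5 other GFP+ arrays in both. F31A9.2 reached the level of the 5 GFP- arrays (6.58 to 8.0), and these 4 were named after their values were seen. With 1 array of each label, these differences have no replicate check.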

How the data were processed

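The deposited table holds log2 expression values, 1 per probe set and array of an Affymetrix C. elegans array. RMA, MAS5, affy and limma are listed, with no role or version, in the submitters' processing notes, and which of them made the deposited values is not settled. Array medians lay between 5.391 and 5.509, and no scaling was added. The table is 22625 probe sets, of which 77 controls were left out and 22548 tested. The platform annotation gave 20766 a single gene, 887 several and 895 none. Each of 17118 genes is represented by the probe set, among those naming it alone, whose mean across the 12 arrays is highest. Gene IDs were matched to RefSeq WBcel235 (17080 genes, all 104 members, 0 symbols changed), used for type, chromosome and order. No sequences were used. Precision is limited by how many arrays there are.

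Tests used limma 3.58.1 in R 4.3.3: a mean per group over the 10 arrays without wild-type replicate 3, eBayes, 2-sided, Benjamini-Hochberg over 22548 probe sets. The fit was tested on simulated data. Figures used matplotlib 3.10.9. The members, marker lists and tests were chosen with earlier results of these data known. Named members were the 10 with the lowest mean difference, 3 on each side of the threshold, extremes of level, range and probe set disagreement, adjacent members, and the smallest p per contrast. Naming by product class and by protein identity was not done, since neither was given. Same-numbered arrays deviated together from their group means between fractions in mutant (correlations across probe sets 0.36, 0.435 and 0.359). They also did so between strains in GFP+ cells (0.278, 0.185 and 0.229). Between fractions in wild-type the correlations were 0.485, 0.41 and 0.418, and between strains in GFP- cells 0.232, -0.0696 and -0.0294. The wild-type group means included replicate 3, so the GFP- mean holds the library with the GFP+ profile. The correlations that use wild-type GFP- arrays therefore cannot show whether those arrays deviated together with the others.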

Additional observations from a re-analysis of the deposited data

How the results depend on the processing

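The fraction medians, the number of members and the counts of members called were recomputed with all 12 arrays, a further quantile normalization, a shift to one array median and, in turn, without each array. The number of members was counted anew in each setting, but every median here is over the members found with 10 arrays. With all 12 arrays 37 genes met the thresholds. For the members found with 10 arrays the wild-type median was then -1.83, and the strain medians 0.73 in GFP- and -0.21 in GFP+ cells. The 12-array values rest in part on the library labelled wild-type GFP- replicate 3. Leaving out each of the 10 arrays gave 93 to 105 members, medians of -2.91 to -2.60 in mutant and -2.84 to -2.76 in wild-type, and strain medians from -0.04 to 0.06 for GFP- cells and from -0.06 to 0.14 for GFP+ cells. The strain median in each fraction is near 0 and changed sign among these fits. Members called between strains in GFP- cells numbered 0 to 2 (2 without mutant GFP- replicate 1, where 0.0488% of all probe sets passed), and 0 in GFP+ cells and in the interaction. With the replicate number as a block 0 members passed in the 3 contrasts, and the smallest adjusted p were 0.17, 0.397 and 1 by limma. Array weights, trended and robust eBayes and the filter on the dimmest 25% of probe sets also gave 0 in each contrast, as did only the groups compared for both strain contrasts. Averaging all single-gene probe sets of a gene gave 85 members. The members found with 10 arrays then had medians of -2.53 in mutant and -2.51 in wild-type.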
